A study of Mus musculus with 69 samples.

Results

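Hyaluronan synthesis and binding genes were followed in mouse dorsal skin after a phorbol ester. The group named 7 genes: the hyaluronan synthases Has1, Has2 and Has3, the hyaluronan receptor Cd44, and the hyaluronan-binding or matrix-bridging genes Tnfaip6, Vcan and Ptx3. They were found by symbol among probe sets that the platform annotation pairs with 1 gene symbol, and each gene was read from its probe set with the highest mean. Of the 7, 6 were measured, each by 1 probe set (Tnfaip6 by 10472050, Has1 by 10448117, Has2 by 10428707, Cd44 by 10485405, Ptx3 by 10492448 and Vcan by 10410931), out of 18820 genes in all. The only probe set naming Has3 also names another gene, so Has3 has no value here.

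RNA from dorsal skin was hybridised to Affymetrix arrays, of which 66 carry both a strain and a time. FVB, an inbred laboratory strain, has 27 arrays, with 3 at each of 0, 2, 6, 12, 24, 48, 72, 168 and 1008 h. The cross of FVB/N and Spret/Ei, labelled F1, has 25 arrays, and Spret/Ei, labelled SPR and derived from the wild species Mus spretus, has 14. F1 had 4 control arrays, 6 arrays at 1008 h, 3 at 48 h, pairs at 4, 6, 12, 24 and 72 h, and single arrays at 2 and 168 h. SPR had 2 arrays each at 0, 4, 12, 24, 48 and 1008 h and 1 each at 2 and 6 h. All mice were aged to 8 weeks and carried no labelled allele beyond their strain. The dorsal skin was shaved and then received TPA in acetone, a tumour promoter of the phorbol ester class that acts through protein kinase C, while the 0 h skin is labelled untreated and no vehicle arrays are among the samples. The protocol speaks of a single dose and of sampling up to a week, the series' design of replicate exposure, so what was applied before 1008 h is not settled. The 0 h arrays were therefore the only controls, and shaving, vehicle and, at 1008 h, age were not separated from TPA. No label links each array to a separate mouse. The p-values therefore rest on differences among arrays of a group, and these may be technical.

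Hyaluronan is a long unsulfated sugar chain of the extracellular matrix, made at the plasma membrane by hyaluronan synthases and spun out into the space between cells. It fills the dermis and the spaces between epidermal keratinocytes, where Cd44 is its main receptor, and its synthesis is known to increase in injured and inflamed skin. In inflamed tissue the chains can be cross-linked into a matrix that binds leukocytes: the product of Tnfaip6, TSG-6, transfers heavy chains of inter-alpha-inhibitor to hyaluronan, pentraxin 3 (Ptx3) binds those heavy chains, and versican (Vcan) is a large proteoglycan that attaches to the chains.

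All values below are log2 expression values as deposited, and a change is a difference of log2 values against 0 h of the same strain, so that 1 stands for a doubling of the signal. The ± sign gives the standard error from the model. A gene was called changed at an adjusted p under 0.05 (limma's moderated test, Benjamini-Hochberg over all 18820 genes) with a change of at least 1 in either direction. In whole skin, more cells of a type and more RNA per cell cannot be told apart, nor can fewer cells and less RNA. How, if at all, the deposited values were aligned between batches was not stated. All FVB arrays lie in a batch of their own, so levels were not compared between FVB and the other strains. As a check of the labelled tissue, 8 keratinocyte markers were read, and none was under 6.78 on any array. Their mean was 7.69 in SPR 12 h replicate 1 against 11.66 or more in every other SPR array. At 12 h in SPR 8 of 8 were called lower, where 15.3% of all genes were called lower.

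Some arrays stood apart before any comparison. SPR 12 h replicate 1 had an interquartile range of 1.63 and F1 72 h replicate 2 of 2.47, against at least 3.32 in every other array, and the first correlated with the other arrays at a median r of only 0.781. FVB control replicates 2 and 3 were high in liver markers, with a mean over 19 markers of 7.80 and 8.28 against 5.11 in replicate 1, and so were 12 h replicate 1 (8.69), 24 h replicate 1 (7.70) and 6 h replicate 2 (7.30) of FVB and an F1 24 h array (8.12). T cell markers averaged 8.67 in FVB 6 h replicate 3 and 7.31 and 7.88 in the same 2 controls, against at most 6.91 in the other FVB arrays. FVB 48 h replicate 1 and 72 h replicate 3 were high in macrophage and fibroblast markers. Called member changes that rest on these arrays are given with and without them. Results of the pathway and marker lists are given with all arrays only.

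The promoters of the 3 genes whose group mean was highest at the first FVB time, 2 h, are shown here because these genes moved together there. Each runs from 250 bases before to 50 after the annotated start, 5′ to 3′ on the gene's strand, from RefSeq on GRCm38.p6. Tnfaip6 lies on the plus strand at chr2:52037863-52038162, Ptx3 on the plus strand at chr3:66219637-66219936 and Has1 on the minus strand at chr17:17855139-17855438. The start that the table gives for Has1 lies inside the annotated span of the gene, so positions in that window count from an inner start. Capitals mark matches to a searched motif.
Tnfaip6 promoter: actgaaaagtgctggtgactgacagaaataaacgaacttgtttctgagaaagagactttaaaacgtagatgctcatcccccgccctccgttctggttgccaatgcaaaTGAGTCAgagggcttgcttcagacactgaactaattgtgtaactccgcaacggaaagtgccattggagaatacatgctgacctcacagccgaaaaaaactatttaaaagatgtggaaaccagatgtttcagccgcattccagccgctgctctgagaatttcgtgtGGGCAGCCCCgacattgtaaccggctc
Ptx3 promoter: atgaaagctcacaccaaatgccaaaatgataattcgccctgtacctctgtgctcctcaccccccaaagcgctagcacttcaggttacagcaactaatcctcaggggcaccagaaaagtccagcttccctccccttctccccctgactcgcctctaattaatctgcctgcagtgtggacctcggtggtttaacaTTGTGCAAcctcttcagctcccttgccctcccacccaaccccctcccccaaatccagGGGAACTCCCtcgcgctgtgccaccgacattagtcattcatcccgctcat
Has1 promoter: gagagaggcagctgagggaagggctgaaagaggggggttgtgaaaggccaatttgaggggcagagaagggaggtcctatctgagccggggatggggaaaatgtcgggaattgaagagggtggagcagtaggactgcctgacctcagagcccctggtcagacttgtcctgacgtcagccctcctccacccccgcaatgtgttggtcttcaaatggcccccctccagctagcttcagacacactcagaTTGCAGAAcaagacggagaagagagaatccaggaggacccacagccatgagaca
Both strands were searched for 4 motifs, in which N is any base: TGANTCA for AP-1, TTGCNNAA for a C/EBP-like site, TATAAA, and an NF-kB-like pattern of 10 bases that opens with GGG, has a T in its middle and closes with CC. Tnfaip6 held the AP-1 letters TGAGTCA beginning 142 bases before the start and the NF-kB-like letters GGGCAGCCCC, a match on the other strand, beginning 23 after it. Ptx3 held an NF-kB-like match at its start, GGGAACTCCC, and the C/EBP-like letters TTGTGCAA beginning 57 bases before it, both as matches on the other strand. Has1 held the C/EBP-like letters TTGCAGAA beginning 4 bases before the start. No match overlapped another, and the same windows of Cd44 and Vcan, the other members in the promoter table, held none of the 4. Among all 32851 promoters of this length, 7.81% held the AP-1 letters, 18.4% the NF-kB-like, 10.8% the C/EBP-like and 13.6% TATAAA. A match is a run of letters, not a shown binding site.

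Across the FVB course, 5 of the 6 measured genes rose by 2 h, 5 by 6 h and 3 by 12 h, and none was called from 24 h on. Among all genes, 3.6% were called higher at 2 h, 6.45% at 6 h and 5.46% at 12 h. The median change of the 6 genes was 3.35 at 2 h, 2.04 at 6 h and 1.07 at 12 h, beside 0.02, -0.0048 and 0.01 over all genes. By the moderated F test over times, 6 of 6 varied in FVB, where 50.9% of all genes did.

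**Figure D1:**
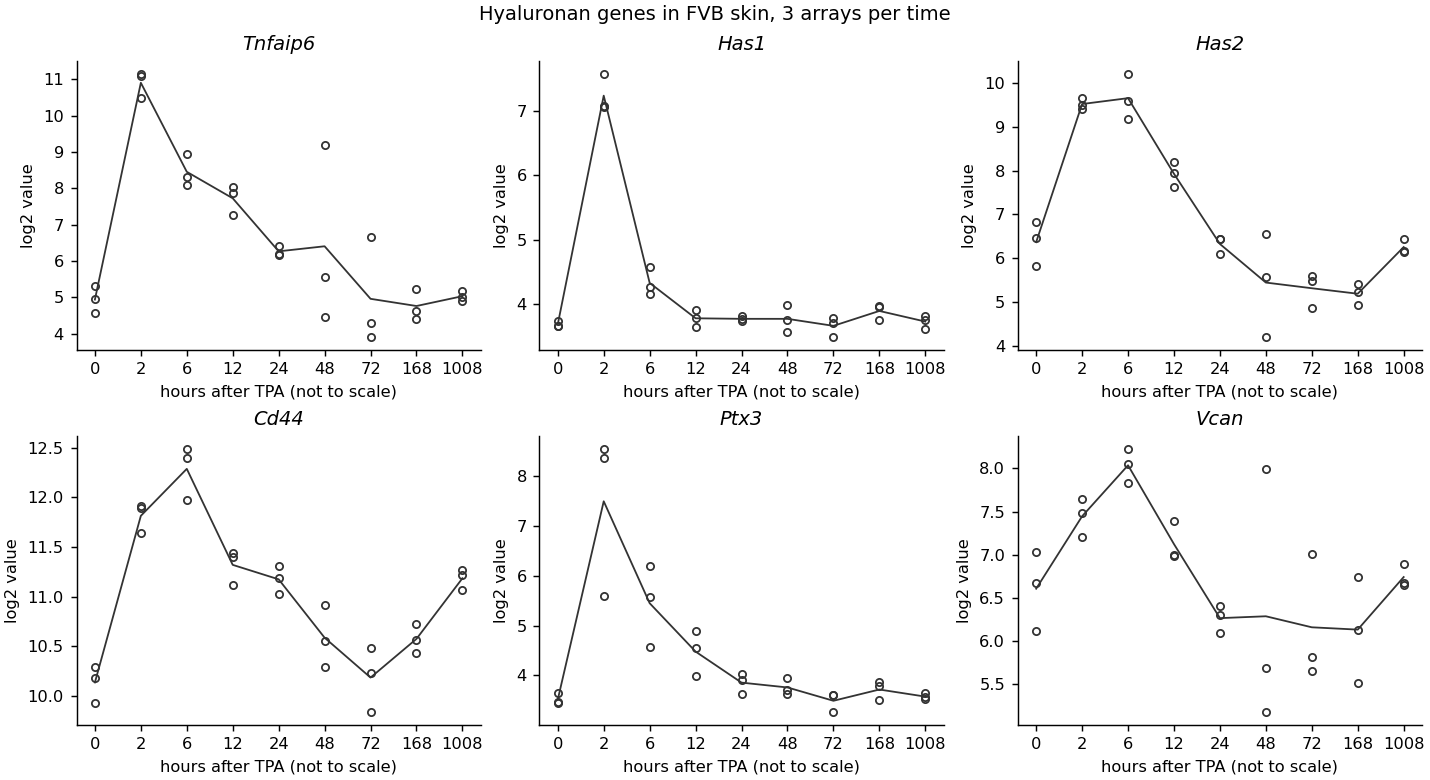
Log2 expression value of each measured hyaluronan gene against hours after TPA in FVB skin, with circles for the 3 arrays of each time and a line through their means; hours are not drawn to scale. Tnfaip6, Has1 and Ptx3 are highest at 2 h and Has2, Cd44 and Vcan at 6 h, and the 48 h arrays of Tnfaip6 and Vcan lie far apart.

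Of the synthases, Has2 is the member best known for hyaluronan output in dermal fibroblasts and keratinocytes. Its FVB controls read 6.82, 6.46 and 5.82, the 2 h arrays 9.41, 9.66 and 9.50, the 6 h arrays 10.20, 9.59 and 9.18, and the 12 h arrays 7.63, 7.95 and 8.20. Every array at these 3 times lay above every control, and the 2 h and 6 h arrays overlapped. Has2 rose 8.92-fold at 2 h (change 3.16 ± 0.42, adjusted p = 2.97e-07) and 9.79-fold at 6 h (3.29 ± 0.42, adjusted p = 7.39e-08), and was still 2.95-fold up at 12 h (1.56 ± 0.42, adjusted p = 0.00479).

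Has2 then came down in 2 called steps. It fell by 1.73 from 6 to 12 h (adjusted p = 0.0118) and by 1.60 from 12 to 24 h (adjusted p = 0.0291), where 0.553% and 0.399% of all genes were called lower. The 24 h arrays, at 6.10, 6.43 and 6.44, lay among the controls. Both steps were fragile: leaving out 1 array took the first past the threshold for 2 arrays, FVB 6 h replicate 1 (-1.45, adjusted p = 0.0970) and 12 h replicate 1 (-1.58, adjusted p = 0.0726), and the second for 12 h replicate 2 or 3 or any 24 h array, with adjusted p up to 0.165.

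Later Has2 values were below the controls without a call. At 72 h the arrays read 4.87, 5.48 and 5.59 and at 168 h 4.92, 5.23 and 5.41, all under the lowest control of 5.82, with changes of -1.05 (adjusted p = 0.142) and -1.18 (adjusted p = 0.169). At 48 h they read 6.54, 5.58 and 4.21, an overlap with the controls (-0.92, adjusted p = 0.134). At 1008 h they read 6.17, 6.14 and 6.45, back among the controls. Without the 2 narrow arrays, which belong to other strains but enter the shared estimate of spread, the 72 h and 168 h changes were called, at adjusted p = 0.0328 and 0.0288. Without FVB 48 h replicate 1 the 48 h change was -1.47 and called (adjusted p = 0.0217).

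Has1, a synthase with low basal activity in most tissues, gave a single pulse in FVB. Its controls read 3.66, 3.75 and 3.67 and the 2 h arrays 7.06, 7.56 and 7.07, and no 2 h array came near a control. That is 11.6-fold (3.54 ± 0.24, adjusted p = 4.42e-15). The controls of Has1, like those of Ptx3, lay low in the signal range. No detection calls were used, so whether they were above background was not tested, and a fold from such a level can be understated. By 6 h the arrays read 4.58, 4.16 and 4.26, still above every control, with a change of 0.64 ± 0.24 (adjusted p = 0.0406) that is under the fold threshold.

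Has1 fell by 2.90 between 2 and 6 h (adjusted p = 1.41e-11), a step in which 2.17% of all genes were called lower. From 12 to 1008 h its arrays ranged from 3.50 to 3.98 and no change was called. At 6 h, when every Has1 array was within 1 unit of its controls, Has2 was in its highest group, although probe sets of different genes give no comparison of amounts.

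Tnfaip6, whose product TSG-6 modifies hyaluronan with heavy chains, showed the greatest 2 h rise of all 18820 genes in FVB. Its controls read 5.30, 4.95 and 4.56 and the 2 h arrays 10.48, 11.10 and 11.14. The 2 h arrays were all more than 5 units above the highest control. The rise was 62.7-fold (5.97 ± 0.60, adjusted p = 3.96e-10).

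Tnfaip6 then declined, most between 2 and 6 h. Arrays at 6 h read 8.95, 8.32 and 8.10 and at 12 h 7.28, 8.03 and 7.88, all above the controls and all below the 2 h arrays. It was 11.5-fold up at 6 h (3.52 ± 0.60, adjusted p = 1.82e-05) and 6.91-fold at 12 h (2.79 ± 0.60, adjusted p = 0.000615). The step from 2 to 6 h was a fall by 2.45 (adjusted p = 0.00703). At 24 h the arrays, at 6.17, 6.20 and 6.42, still lay above every control, and the change of 1.33 ± 0.60 was not called (adjusted p = 0.139).

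Ptx3, a secreted pattern-recognition protein, rose 15.7-fold at 2 h (3.97 ± 0.40, adjusted p = 4.16e-10) and 3.81-fold at 6 h (1.93 ± 0.40, adjusted p = 0.000284). Its controls read 3.65, 3.44 and 3.46, the 2 h arrays 5.58, 8.36 and 8.53 and the 6 h arrays 6.20, 4.57 and 5.57. All treated arrays at both times were above the controls, but 2 h replicate 1 was well below the other 2 h arrays and lay among those of 6 h. Neutrophil markers, which rise as these cells enter skin, were also lowest in that array, with a mean over 10 markers of 5.13 against 6.93 and 6.10 in the other 2 h arrays and 4.69 to 4.85 in the controls; their part in the Ptx3 values was not tested.

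Ptx3 fell by 2.04 from 2 to 6 h (adjusted p = 0.000724). At 12 h its arrays read 4.55, 4.89 and 4.00, all above the controls, with a change of 0.96 ± 0.40 that was not called (adjusted p = 0.0790). From 24 h on they ranged from 3.27 to 4.03 and no change was called.

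Cd44, the receptor that anchors cells to hyaluronan, rose at 2, 6 and 12 h and was highest at 6 h. The FVB controls read 10.30, 10.18 and 9.93, the 2 h arrays 11.64, 11.89 and 11.91, the 6 h arrays 12.48, 12.40 and 11.98 and the 12 h arrays 11.40, 11.44 and 11.12. Each of these arrays exceeded every control. The rise was 3.20-fold at 2 h (1.68 ± 0.40, adjusted p = 0.00244), 4.44-fold at 6 h (2.15 ± 0.40, adjusted p = 5.74e-05) and 2.27-fold at 12 h (1.18 ± 0.40, adjusted p = 0.0251). The 12 h call was lost without control replicate 2 (adjusted p = 0.0573) or 3 (0.0840) or 12 h replicate 1 (0.0614) or 2 (0.0756).

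The Cd44 arrays did not settle back at once. They read 11.03, 11.18 and 11.31 at 24 h and 11.27, 11.06 and 11.22 at 1008 h, above all controls at both times, with changes of 1.04 (adjusted p = 0.0730) and 1.05 (adjusted p = 0.0583) that were not called. At 48 and 72 h they overlapped the controls, from 9.84 to 10.91, and at 168 h, at 10.56, 10.43 and 10.73, they were again above them (0.44, not called). Without the 2 narrow arrays, 1 of which holds the lowest Cd44 value in the series, the changes at 24 and 1008 h were called (adjusted p = 5.84e-05 at 24 h and 3.12e-05 at 1008 h). The 1008 h skin differed from the control in hair growth genes. Of 13 markers of hair matrix and inner root sheath, 11 were called higher, where 4.22% of all genes were. Their array means were 9.61 to 9.86 against 5.87 to 6.06, and their part in the Cd44 values was not tested.

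Vcan, the proteoglycan whose head domain binds hyaluronan, was called at 6 h alone in FVB. Its controls read 7.03, 6.67 and 6.11, the 2 h arrays 7.21, 7.65 and 7.48 and the 6 h arrays 8.05, 7.83 and 8.22. All arrays of both times were above the controls. The rise was 2.70-fold at 6 h (1.43 ± 0.43, adjusted p = 0.0115), while the 2 h change of 0.84 ± 0.43 was not called (adjusted p = 0.204). The 6 h call was lost without control replicate 3 (1.19, adjusted p = 0.0743).

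Fibroblasts make much of the dermal Vcan and Tnfaip6, so fibroblast markers were read beside them. None of the 10 was called at 2 h, 1 was called lower at 6 h, and 4 lower and 1 higher at 12 h, with array means between 8.87 and 9.50 in the controls, 9.31 and 9.48 at 2 h and 8.12 and 8.80 at 6 h. Of 10 neutrophil markers, 4 were called higher at 2 h, 7 at 6 h and 6 at 12 h. Of 10 dermal papilla markers, 3, 5 and 5 were called lower at those times. Among all genes 3.6%, 6.45% and 5.46% were called higher there, and 3.08%, 5.88% and 4.94% lower.

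Removing control replicates 2 and 3, the controls high in liver markers, left 1 control and 8 called member changes in place of 13. Called still were Tnfaip6, Has1, Has2 and Ptx3 at 2 h and Tnfaip6, Has2, Cd44 and Ptx3 at 6 h. The changes that lost their call kept their sign: Cd44 at 2 h was 1.52 (adjusted p = 0.133), Vcan at 6 h 1.01 (0.321), Tnfaip6 at 12 h 2.43 (0.0647), Has2 at 12 h 1.11 (0.250) and Cd44 at 12 h 1.02 (0.278). With that single control, the spread was taken from the other groups. Leaving out 1 of the treated arrays high in liver or T cell markers (6 h replicate 2 or 3, 12 h replicate 1) ended 1 of the 8 member calls against 0 h at 6 and 12 h, that of Cd44 at 12 h without 12 h replicate 1.

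The arrays of 48 and 72 h disagreed for 2 genes. Tnfaip6 read 9.18, 5.57 and 4.46 at 48 h and 4.28, 3.92 and 6.67 at 72 h. Vcan read 8.00, 5.68 and 5.18 at 48 h and 5.65, 5.81 and 7.01 at 72 h. The same 2 arrays, 48 h replicate 1 and 72 h replicate 3, were high for both genes.

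Macrophage markers, 10 of them, averaged 8.99 in 48 h replicate 1 and 7.73 in 72 h replicate 3, against 6.49 and 6.57 in the other 48 h arrays, 5.99 and 5.84 in the other 72 h arrays and 6.23 to 6.35 in the controls. Fibroblast markers averaged 9.82 and 9.87 in these 2 arrays, above the others of 48 h (8.26 and 7.47) and 72 h (8.20 and 8.66), and above the controls. Mast cell markers (6.40 and 6.86) and adipocyte markers (8.43 and 9.24) were also highest of their time in these arrays, although 48 h replicate 3 reached 8.17 for the latter, and keratinocyte markers (11.28 and 10.66) were lowest. The part of these markers in the Tnfaip6 and Vcan values was not tested. Has2 was also highest in 48 h replicate 1, at 6.54, but 72 h replicate 3, at 5.59, lay beside replicate 2, at 5.48.

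The 48 h change of Tnfaip6 was 1.47 ± 0.60 and not called (adjusted p = 0.0947). It was called under cyclic loess (1.56, adjusted p = 0.0492) and without 48 h replicate 3 (2.44, adjusted p = 0.00854). Without both arrays, an alternative chosen after the data were seen, the Tnfaip6 change was 0.08 (adjusted p = 0.927), and the Vcan change at 48 h went from -0.32 to -1.18 and was called (adjusted p = 0.0320). The 24 h change of Tnfaip6 stayed at 1.33 and became called (adjusted p = 0.00930). Over all 5 late FVB times, limma called 0 of 30 member changes, and 7 had an unadjusted p under 0.05; the shares of all genes called higher were, in order of time, 2.85%, 3.1%, 0.94%, 0.255% and 4.22%.

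**Figure D2:**
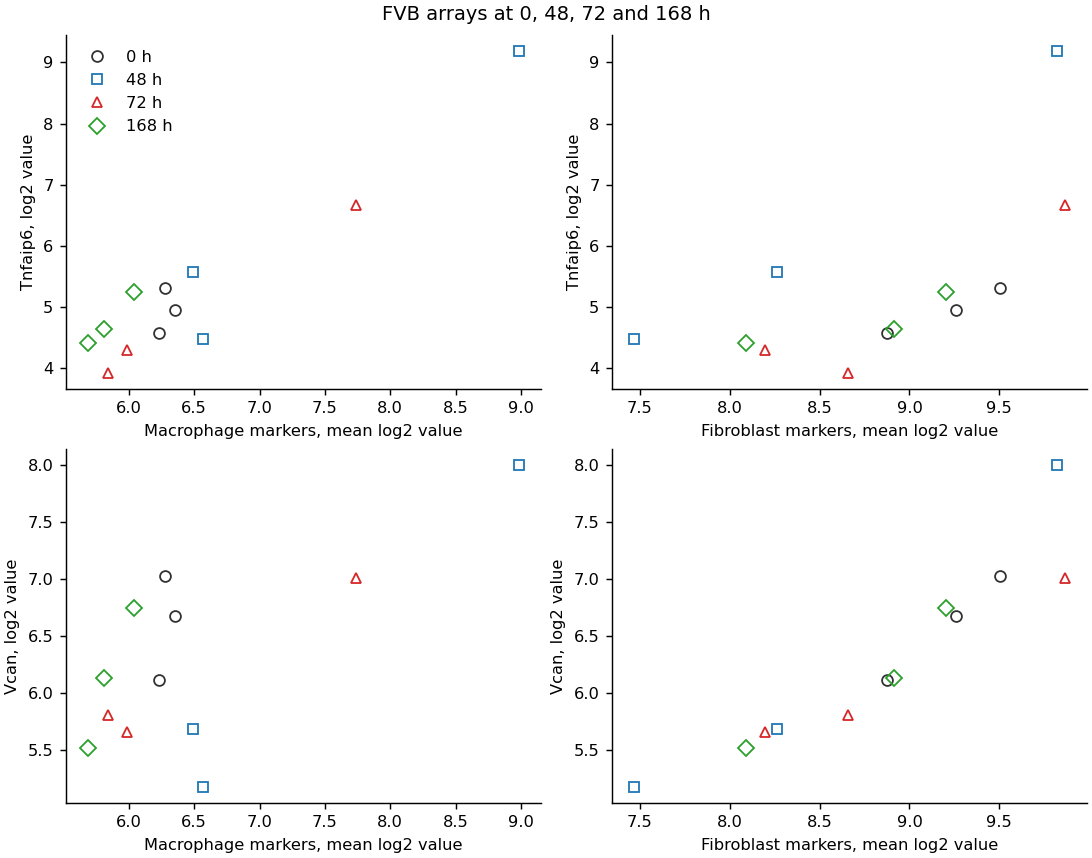
Log2 value of Tnfaip6 (upper row) and Vcan (lower row) against the mean log2 value of 10 macrophage markers (left) and 10 fibroblast markers (right), for the FVB arrays at 0, 48, 72 and 168 h, 1 symbol per array and 1 shape per time. The 48 h array at 9.18 for Tnfaip6 and the 72 h array at 6.67 are also the highest of their times for Vcan and for both marker means.

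In F1 skin the genes answered together. At 4 h 6 of 6 were called higher, at 6 h 6 of 6 and at 12 h 1, where 5.46%, 5.44% and 2.48% of all genes were. By the F test over times 6 of 6 varied, as did 26.7% of all genes. At 4 and 6 h 1 array came from batch 2 and 1 from batch 3, and the sign was the same within both batches for every gene.

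Tnfaip6 in F1 had controls at 4.83, 4.75, 4.45 and 4.19, the single 2 h array at 8.92, the 4 h arrays at 9.60 and 10.29 and the 6 h arrays at 8.90 and 8.91. All treated arrays to 6 h were far above the controls. It rose 41.9-fold at 4 h (5.39 ± 0.64, adjusted p = 2.46e-08), the second largest rise of all genes there, and 20.3-fold at 6 h (4.34 ± 0.64, adjusted p = 1.78e-06). At 12 h it read 6.13 and 6.63, again above all controls, without a call (1.82 ± 0.64, adjusted p = 0.0635). It was called without the 2 narrow arrays (adjusted p = 0.0387), with dim genes left out (0.0465), under cyclic loess (0.0296) and with F1 fitted alone (0.00251).

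Has2 in F1 had controls at 4.92, 5.20, 5.17 and 4.82, the 2 h array at 6.98, the 4 h arrays at 9.54 and 9.29, the 6 h arrays at 8.82 and 9.53 and the 12 h arrays at 7.82 and 8.13. Each treated array was above every control, and the 12 h arrays lay below those of 4 and 6 h but above the 2 h array. Has2 rose 20.9-fold at 4 h (4.39 ± 0.44, adjusted p = 7.65e-10), 17.7-fold at 6 h (4.15 ± 0.44, adjusted p = 4.20e-09) and 7.71-fold at 12 h (2.95 ± 0.44, adjusted p = 9.46e-06). Within batches the 6 h change was 3.78 in batch 2 and 4.52 in batch 3. Has2 was the 1 member called at 12 h in the joint fit of all strains.

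Has1 in F1 was highest in the single 2 h array, at 6.85 against controls of 3.45, 3.46, 3.83 and 3.56. The 4 h arrays read 5.39 and 6.40 and the 6 h arrays 5.02 and 4.64, all above the controls and all below the 2 h array. Has1 was 4.99-fold up at 4 h (2.32 ± 0.25, adjusted p = 3.51e-09) and 2.39-fold at 6 h (1.26 ± 0.25, adjusted p = 0.000226), with 4 h changes of 1.75 in batch 2 and 2.89 in batch 3.

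Ptx3 in F1 had controls between 3.20 and 3.60, a 2 h array at 5.63, 4 h arrays at 6.24 and 7.23 and 6 h arrays at 5.67 and 6.45. No treated array to 6 h reached down to a control. It rose 9.86-fold at 4 h (3.30 ± 0.43, adjusted p = 1.45e-07) and 6.16-fold at 6 h (2.62 ± 0.43, adjusted p = 1.04e-05). At 12 h it read 3.77 and 3.59, back beside the controls.

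Cd44 and Vcan gave the smallest F1 changes at 4 h, while at 6 h that of Has1, 1.26, was the smallest. Cd44 had controls at 10.74, 10.07, 10.76 and 10.09, with 11.85 and 11.91 at 4 h and 11.75 and 12.16 at 6 h, all above the controls, whereas the single 2 h array, at 10.53, lay among them. Cd44 rose 2.76-fold at 4 h (1.47 ± 0.42, adjusted p = 0.00900) and 2.90-fold at 6 h (1.54 ± 0.42, adjusted p = 0.00659). The Cd44 controls differed by batch, and the 6 h change was 1.00 in batch 2 and 2.08 in batch 3. Without F1 4 h replicate 2 the 4 h call was lost (1.29, adjusted p = 0.189), and without 6 h replicate 2 the 6 h call (1.18, adjusted p = 0.292).

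Vcan in F1 had controls at 6.65, 7.21, 6.21 and 6.32, a 2 h array at 7.41, 4 h arrays at 7.59 and 8.11 and 6 h arrays at 8.33 and 7.85. These treated arrays were all above the controls. Vcan rose 2.39-fold at 4 h (1.25 ± 0.46, adjusted p = 0.0460) and 2.81-fold at 6 h (1.49 ± 0.46, adjusted p = 0.0171). The 4 h call was lost when any of F1 control replicates 1, 3 or 4 or either 4 h array was left out, with adjusted p from 0.0555 to 0.570, and the 6 h call without control replicate 3 or either 6 h array, with adjusted p from 0.0531 to 0.134. Fitted on batch 2 alone, 6 of the 13 F1 calls held, those of Tnfaip6, Has2 and Ptx3 at 4 and 6 h.

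After 12 h no F1 change was called. Of 24 member changes from 24 to 1008 h limma called 0, and 2 had an unadjusted p under 0.05, while 1.14%, 1.04%, 0.202% and 0.515% of all genes were called higher at 24, 48, 72 and 1008 h. The 6 arrays of 1008 h ran for Has2 from a lowest 5.26 through a median of 5.55 to a highest 5.70, just above every control. For Tnfaip6 they ran from 4.37 through 4.88 to 5.75, and overlapped the controls. The 168 h array read 5.53 for Has2 and 5.42 for Tnfaip6.

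**Figure D3:**
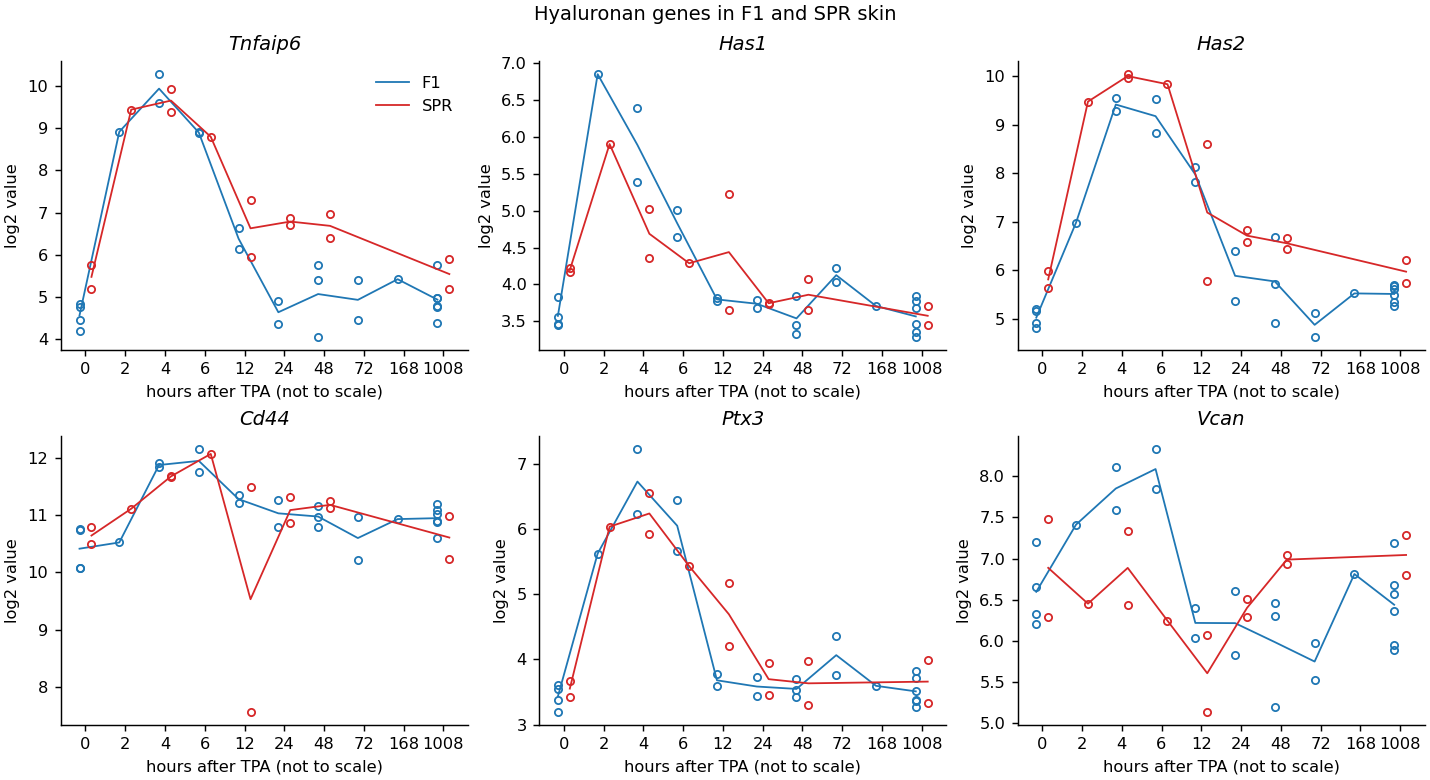
Log2 expression value of each measured hyaluronan gene against hours after TPA in F1 (blue) and SPR (red) skin, 1 circle per array and lines through group means; hours are not drawn to scale. The means of Tnfaip6, Has2 and Ptx3 are highest at 4 h in each strain, though some 2 h or 6 h arrays lie within the span of the 4 h arrays. Has1 is highest in the single 2 h arrays, and SPR 12 h replicate 1 stands at 7.56 for Cd44.

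In SPR skin 3 genes were called higher at 4 h, Tnfaip6, Has2 and Ptx3, and 1 at 12 h, Has2, against 2.57% and 3.1% of all genes. By the F test 5 of 6 varied over times and Vcan did not pass (adjusted p = 0.124), beside 35.3% of all genes. Fitted on SPR arrays alone, 1 of the 4 calls held, that of Tnfaip6 at 4 h, and the F test called none of the 6.

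Tnfaip6 in SPR had controls at 5.18 and 5.76, a 2 h array at 9.45, 4 h arrays at 9.39 and 9.93, a 6 h array at 8.80 and 12 h arrays at 5.95 and 7.30. All were above the controls. The 4 h rise was 18.2-fold (4.19 ± 0.74, adjusted p = 0.000123). Its 24 h arrays, at 6.86 and 6.71, and 48 h arrays, at 6.40 and 6.97, also stood above both controls, without a call (1.44 and 1.21, adjusted p = 0.914 and 1). Macrophage markers in SPR averaged 7.21 to 8.16 at 24 h and 7.02 to 7.66 at 48 h against at most 6.45 in the controls, with 0 of 10 called at either time, and their part in the Tnfaip6 values was not tested.

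Has2 in SPR had controls at 5.63 and 6.00, a 2 h array at 9.48, 4 h arrays at 9.96 and 10.04 and a 6 h array at 9.83. The treated arrays to 6 h lay close together and far above the controls. The 4 h rise was 18.2-fold (4.19 ± 0.51, adjusted p = 5.92e-07). The 12 h arrays read 5.79, in the narrow array, and 8.60, so the call there (1.38 ± 0.51, adjusted p = 0.0368) averages a value among the controls and a high one. Without replicate 1 the change was 2.78 and without replicate 2 it was -0.0255 (adjusted p = 0.966).

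Ptx3 in SPR had controls at 3.43 and 3.68, a 2 h array at 6.04, 4 h arrays at 5.93 and 6.56 and a 6 h array at 5.43, all high. The 4 h rise was 6.46-fold (2.69 ± 0.49, adjusted p = 0.000219). Has1 in SPR read 4.22 and 4.17 in the controls, 5.91 in the single 2 h array, 4.35 and 5.02 at 4 h and 4.29 at 6 h. The 2 h array alone was more than 1 unit above the controls to 6 h, and the 4 h change of 0.49 ± 0.29 was not called (adjusted p = 0.441).

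Cd44 in SPR read 10.50 and 10.79 in the controls, 11.12 at 2 h, 11.70 and 11.67 at 4 h, 12.08 at 6 h and 7.56 and 11.50 at 12 h. All of these but the narrow 12 h array, which reads 7.56, were above the controls. The 4 h change of 1.04 ± 0.49 was not called (adjusted p = 0.245), and was called without the 2 narrow arrays (adjusted p = 0.00123). Vcan in SPR showed no early rise: the controls read 6.29 and 7.48, the 4 h arrays 6.44 and 7.34 and the single 2 h and 6 h arrays 6.45 and 6.25, all within the span of the controls or below it. From 24 to 1008 h limma called 0 of 18 SPR member changes, and 0 had an unadjusted p under 0.05, where 0.191%, 0.165% and 0% of all genes were called higher at 24, 48 and 1008 h.

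Whether the strains differed was tested on the difference of their changes, in 90 tests of 6 genes over 15 comparisons that share their controls. One was called: Cd44 in SPR against FVB at 12 h, at -2.30 ± 0.63 (adjusted p = 0.0102), in a comparison where 17.2% of all genes were called in either direction. It rests on the narrow array: without the 2 narrow arrays the difference was -0.33 (adjusted p = 0.848). It was also lost without SPR control replicate 2 (adjusted p = 0.0617). In all, 8 of the 90 had an unadjusted p under 0.05. Among all genes the F1 and FVB changes differed in 0% at 6 and 12 h and in 0.0106%, 0.0691%, 0.361% and 1.41% at 24, 48, 72 and 1008 h. Those of SPR and FVB differed in 0.0106% at 24 h, 0.143% at 48 h and 1.4% at 1008 h, and those of SPR and F1 in 5.91% at 12 h and 0% at 24, 48 and 1008 h.

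Has1 in SPR against F1 at 4 h was called under some alternatives. The SPR change was 0.49 and the F1 change 2.32, a difference of -1.83 ± 0.38 with a 95% confidence interval from -2.60 to -1.05 and an adjusted p of 0.127. It was called with arrays centred on their medians (adjusted p = 0.0357), under cyclic loess (0.00568) and without the 2 narrow arrays (0.00807). In that comparison 0.00531% of all genes were called. All SPR arrays at 0 and 4 h came from batch 2. The F1 change of Has1 at 4 h was 1.75 in that batch and 2.89 in batch 3. Has2 in F1 against FVB at 48 h differed by 1.62 ± 0.57 without a call (adjusted p = 0.312) and was called without the 2 narrow arrays (adjusted p = 0.0475).

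For the other genes at 4 h the SPR change minus the F1 change was not called, and the intervals were wide: -3.16 to 0.76 for Tnfaip6, -1.56 to 1.16 for Has2, -1.92 to 0.70 for Ptx3, -1.72 to 0.86 for Cd44 and -2.67 to 0.16 for Vcan. At 6 h the F1 change minus the FVB change ran from -0.61 for Cd44 to 0.86 for Has2, with an interval of -0.94 to 2.59 for Tnfaip6 and -0.37 to 2.08 for Has2. None of these shows that strains respond alike. FVB has no 4 h arrays, and F1 and SPR have 1 array each at 2 h, so times of highest value are not compared between strains.

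Beyond the 6 genes, lists of the pathway were counted whole in FVB. For this list and those below, the shares of all genes called higher in FVB serve as background. They were 3.6%, 6.45%, 5.46%, 2.85%, 3.1% and 4.22% at 2, 6, 12, 24, 48 and 1008 h. The median change over all genes lay between -0.0357 (1008 h) and 0.0533 (48 h) at every FVB time. Of 6 measured genes of precursor synthesis, which supply the 2 sugar nucleotides of hyaluronan, 2 rose at 2 h, 3 at 6 h and 1 at 12 h, and the median change was 0.59, 0.79 and 0.80. Gfpt2, an isoform of the rate-limiting enzyme of the hexosamine pathway, rose by 3.17 ± 0.35 at 2 h (adjusted p = 5.40e-09) and by 1.24 at 12 h. Uap1, which forms UDP-N-acetylglucosamine, rose by 2.45 ± 0.25 at 2 h (adjusted p = 4.02e-10). Gfpt1, the other isoform, rose at 6 h, by 1.17 ± 0.28 (adjusted p = 0.00141).

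Precursor genes also rose in the other strains. At 4 h 2 of 6 were called higher in F1 and 2 in SPR, where 5.46% and 2.57% of all genes were. They were the same pair: Gfpt2 rose by 2.76 ± 0.37 in F1 and 1.87 ± 0.43 in SPR, and Uap1 by 2.34 ± 0.26 and 1.56 ± 0.30.

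Versican-cleaving proteases held the gene with the largest change among these lists, Adamts4. Of 6 measured members, 3 rose at 2 h, 3 at 6 h and 3 at 12 h and 1 at 24 h, with a median change of 1.25, 1.06, 0.84 and 0.24. Adamts4 rose by 4.66 ± 0.29 at 2 h (adjusted p = 6.10e-16) and by 4.87 ± 0.29 at 6 h (adjusted p = 1.16e-16), and was still up by 1.28 at 24 h. Adamts9 rose by 3.17 ± 0.49 at 6 h and Adamts1 by 2.57 ± 0.31 at 2 h. In F1 at 4 h the same list had 3 called higher, with Adamts4 at 4.59 ± 0.31, and in SPR 2, with Adamts4 at 4.00 ± 0.35. Among all genes 5.46% were called higher there in F1 and 2.57% in SPR.

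**Figure D4:**
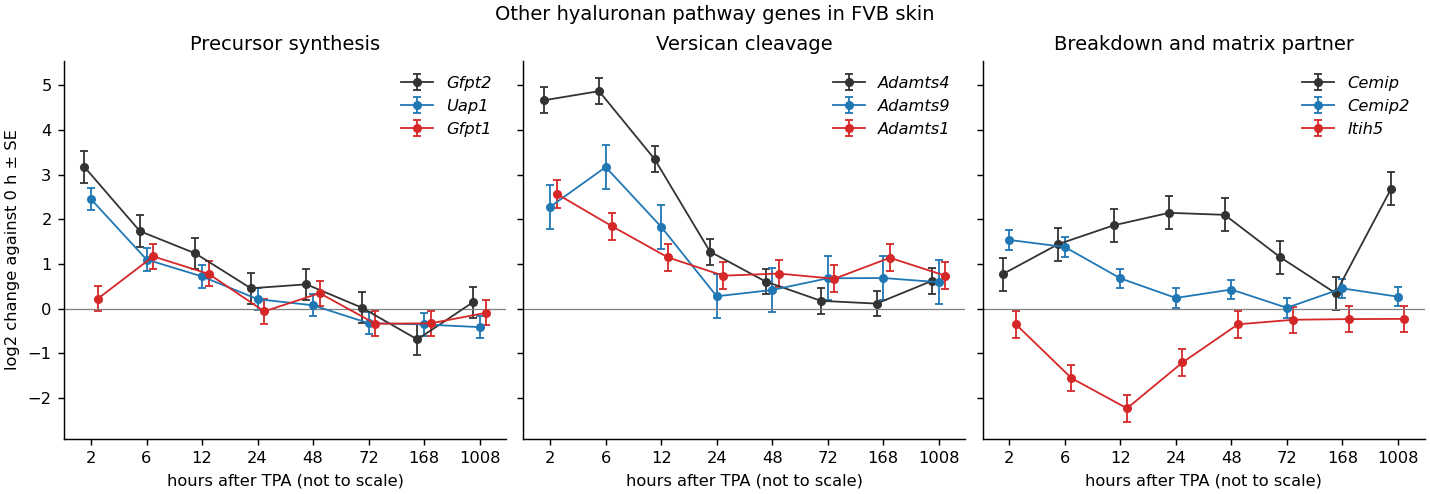
Log2 change against 0 h, with standard error bars of the fit, at each later time in FVB skin for named genes of precursor synthesis (left), versican cleavage (middle) and hyaluronan breakdown with the matrix partner Itih5 (right); 3 arrays per time, hours not to scale. Gfpt2 and Uap1 are highest at 2 h, Adamts4 stays above 3 to 12 h, Cemip climbs to 2.15 at 24 h and is 2.69 at 1008 h, and Itih5 reaches -2.23 at 12 h.

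Of 6 measured genes of hyaluronan breakdown, 1 rose at 2 h, 2 at 6 h and 1 each at 12, 24, 48 and 1008 h, with a list median of 0.06 at 2 h and 0.66 at 48 h. All of these calls were of Cemip2 or Cemip. Cemip2, also called Tmem2 and described as a cell-surface hyaluronidase, rose by 1.54 ± 0.22 at 2 h (adjusted p = 1.40e-06) and 1.38 at 6 h. Cemip, which is needed for hyaluronan degradation by skin fibroblasts, rose by 1.44 ± 0.37 at 6 h (adjusted p = 0.00258), 1.87, 2.15 and 2.10 at 12, 24 and 48 h, and by 2.69 at 1008 h (adjusted p = 1.07e-06). It was called in F1 at 12, 24, 48 and 1008 h, with 2.38 ± 0.39 at 12 h, and in SPR at 12 and 24 h, with 1.97 ± 0.46 at 24 h. The SPR call at 12 h includes the narrow array. Among all genes 2.48%, 1.14%, 1.04% and 0.515% were called higher at those F1 times, and 3.1% and 0.191% at those SPR times.

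Of 7 further receptors and uptake genes, 2 rose at 2, 6 and 12 h each and 1 each at 24, 48 and 1008 h, and none fell. Tlr2, a pattern-recognition receptor said to sense hyaluronan fragments, rose by 1.46 ± 0.25 at 2 h. Tlr4 rose by 1.24 at 6 h and 1.33 at 12 h. Hmmr, a hyaluronan-binding protein that also serves the mitotic spindle, rose by 1.60 ± 0.26 at 24 h, and Stab1, a scavenger receptor of macrophages, by 1.35 ± 0.40 at 48 h, the time at which 1 array was rich in macrophage markers.

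None of 14 matrix partners rose at any FVB time, 2 fell at 2 h and 1 each at 6, 12 and 24 h, and the list median was -0.27 at 2 h and -0.33 at 12 h. Among all genes 3.08%, 5.88%, 4.94% and 2.64% were called lower at these 4 times. Itih5, a heavy chain of the inter-alpha-inhibitor family expressed in skin, fell by 1.55 at 6 h, by 2.23 at 12 h (adjusted p = 4.01e-07) and by 1.20 at 24 h. At 12 h it fell by 2.08 in F1 and it fell by 1.61 in SPR, where 2.47% and 15.3% of all genes were called lower, the latter with the narrow array. Itih2 and Ambp, which encode a heavy chain and the light chain and are made mainly by the liver, changed by -2.47 and -2.29 at 2 h (adjusted p = 0.0207 and 0.0329). At the same time 10 of 19 liver markers were called lower, with array means of 4.53 to 5.61 against 5.11, 7.80 and 8.28 in the controls.

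Of 7 measured linkers and sheddases of Cd44, 1 rose at 2 h, 3 at 6 h and 2 at 12 h. At 24 h 1 was called lower and at 1008 h 1, where 2.64% and 3.92% of all genes were. Ezr, which ties Cd44 to actin, rose by 1.22 ± 0.32 at 2 h, and Msn, a relative of it, by 1.92 ± 0.44 at 6 h. Of the proteases, Adam17 rose by 1.46 ± 0.34 at 6 h and Mmp9 by 1.67 ± 0.47 at 6 h and 1.92 at 12 h, and Mmp9 was called lower at 1008 h (adjusted p = 0.0200), as were 3.92% of all genes.

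The genes whose values ran most like each member over the 27 FVB arrays, by Pearson's r across arrays of 1 batch, are given as a description. For Tnfaip6 they were Gfpt2 (r = 0.969), Ccl2 (0.953) and Wsb1 (0.952). For Has2 they were Zdhhc18 (0.974), Ccn1 (0.954) and Osmr (0.951), and for Has1 Zfp36 (0.922), Ccrl2 (0.921) and Kdm6b (0.917). For Cd44 they were Pprc1 (0.954), Hbegf (0.952) and Tgm1 (0.951), for Ptx3 Bdkrb1 (0.927), Rnd1 (0.924) and Apold1 (0.922), and for Vcan Sh3pxd2b (0.909), Pxn (0.908) and Cdc42ep2 (0.895). No gene stood among the 3 nearest of more than 1 member, and no other member was among them.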

How the data were processed

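RNA of 69 skin samples was measured on Affymetrix arrays. The authors deposited log2 expression values for 35556 probe sets. The submitters' processing notes list RMA, with no version given. As usually run, RMA corrects background, brings arrays to 1 distribution and summarises probes, which can damp large changes. The deposited arrays did not share 1 distribution, with interquartile ranges from 1.63 to 3.72. How, if at all, batches were aligned was not stated. By the platform annotation 21218 probe sets carried 1 symbol, 1881 several (not used) and 12457 none. Promoters of 5 of the 7 members were found in RefSeq tables.

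Groups follow the strain and hour labels, and 3 arrays without a strain entered no comparison. limma 3.58.1 (R 4.3.3) fitted the 27 groups of all strains jointly, with batches 2 and 3 as a covariate and 38 residual degrees of freedom, and tested two-sided. Scripts were tested on simulated data. The number of arrays limits the precision.

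The members, gene lists and motifs were chosen with earlier results of these data known. Named are all members, the 3 genes nearest to each by correlation, and up to 4 called genes per pathway list by the size of their FVB change. Alternatives were the variance model, median centring, cyclic loess, no batch term, strains fitted alone, a replicate block, no fold threshold, a dim-gene filter, all probe sets, the mean over a gene's probe sets, batch 2 alone, and arrays left out. Replicate numbers gave no sign of pairing the FVB arrays. In deviations from group means, same-numbered pairs correlated at a median of -0.0087 and differently numbered pairs at -0.0092. Of 108 same-numbered pairs, 22 correlated over 0.1.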

Additional observations from a re-analysis of the deposited data

Results flagged for a closer look

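The difference in the Cd44 change between SPR and FVB at 12 h, -2.30, passed the test of the difference itself. It rests on SPR 12 h replicate 1, the array of narrow range.

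The 3 arrays with no strain in the labels entered no comparison. For every measured gene but Vcan, all 3 read above the highest of the 9 control arrays. That control can be of another batch, so the values are a description only. Tnfaip6 read 8.56 in the array labelled 2 h, 10.29 in the one labelled 6 h and 10.39 in the one with no time, against 5.77 in the highest control. Has1 read 5.50, 4.47 and 5.98 in the same order (highest control 4.22), Has2 7.52, 9.98 and 9.65 (6.82), Cd44 11.28, 12.01 and 11.01 (10.79) and Ptx3 5.19, 7.09 and 7.38 (3.68). Vcan read 7.72 and 7.71 in the arrays labelled 2 h and 6 h, but 6.93 in the one with no time (highest control 7.48). Dixon's criterion was used on sets of 4 to 10 arrays, which only F1 at 0 h and F1 at 1008 h have. In those 12 sets of values no sample stood far from the others of its group. No FVB or SPR group could be tested this way, nor F1 at other times.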

How the results depend on the processing

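The number of called member changes in FVB, 13, was 8 without FVB controls 2 and 3. In F1, 13 became 6 with batch 2 alone, and the F test over times went from 6 to 3 members there and from 5 to 3 in SPR. With each strain fitted alone, SPR went from 4 calls to 1 and from 5 to 0 members in the F test. The count of strain differences, 1, was 4 with median centring, 3 with dim genes left out, 0 with batch 2 alone, 2 without the 2 narrow arrays, 0 without FVB controls 2 and 3, and 3 without FVB 48 h replicate 1 and 72 h replicate 3 together, an alternative chosen after the data were seen. All other settings kept these counts within 1.5 times.

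Leaving out 1 array at a time gave 11 to 16 calls in FVB, 4 to 5 between consecutive FVB times, 11 to 13 in F1 and 3 to 8 in SPR, the 8 without SPR 12 h replicate 2. F tests called 6 to 6 members in FVB, 5 to 6 in F1 and 4 to 5 in SPR, and strain differences ranged from 0 to 6. Has2 in SPR at 12 h ran from -0.0255, a reversal, without SPR 12 h replicate 2 to 2.78 without replicate 1. The cause of these shifts was not tested. With the replicate block the counts were 13 in FVB, 12 in F1, 4 in SPR, 5 between FVB times and 1 between strains, and Vcan in F1 at 4 h alone lost its call (adjusted p = 0.0523); 10 of 27 FVB arrays correlated best with their own number.

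All 6 members were kept by the filter on dim genes, which goes by a gene's highest group mean. Tnfaip6, Has1 and Ptx3 passed only through groups after TPA, as their control means in each strain lay under the cut of 5.534. Passing therefore does not show that these genes were detected in control skin. Groups hold 1 to 6 arrays, which sets the precision, and Has1 and Ptx3 lay near the low end of the signal range in the controls.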
